A study of Mus musculus with 16 samples.

Results

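The clone OP-S33Y #1, labelled "O-S33Y # 1", was compared with its parental line, young-passage E14 mouse embryonic stem cells labelled "E14 mESCs Young" (YP-mESCs). Libraries were chosen by these titles, which gives 2 replicates of the clone and 2 of YP-mESCs, 4 of the 16 libraries of the series. The series measured DNA methylation at CpG dinucleotides by reduced representation bisulfite sequencing, in which a restriction digest selects CpG-rich fragments and bisulfite converts unmethylated cytosines so that they are read as thymine. It asks whether Wnt/β-catenin activity bears on the methylation of mESCs kept for many passages, with imprinted regions as its main readout. The present comparison asks which CpGs, regions and promoters differ genome-wide between the stable β-catenin clone and the young cells.

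YP-mESCs were E14 (129/Ola) cells at passage 14, with no transgene, in gelatine-coated plates and medium with serum and LIF. OP-S33Y #1 was made from these young cells by overexpression of β-catenin with the S33Y substitution, and was then cultured over many passages under the regime used for the old-passage E14 cells (OP-mESCs). Its passage number was not given in the labels. The transgene, the derivation as 1 clonal line and the long culture came together in OP-S33Y #1, so their parts in any difference cannot be told apart here. The labels do not say whether the replicates were separate cultures, so the spread between these libraries may be technical. The p-values rest on read counts and on this spread. For single CpGs and imprinted regions the main tests pooled the spread over all of them. The spread of a given CpG or imprinted region by itself therefore did not enter its p-value.

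β-catenin is the transcriptional co-activator of the canonical Wnt pathway. Without a Wnt signal it is phosphorylated at amino-terminal serines and a threonine within the Axin/APC/GSK3 destruction complex and degraded, whereas the S33Y protein lacks a phosphorylated serine and escapes degradation. CpG methylation in mammals is high over most of the genome and low at CpG islands, the CpG-dense stretches at many promoters. In mESCs in serum it varies between culture conditions, and imprinting control regions (ICRs) carry it on the allele from only 1 parent.

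The 4 libraries had 26038661 to 32301678 reads on CpGs, with a median of 26 to 42 reads per covered CpG. After summing the strands, 611663 CpGs had at least 10 reads in all 4 libraries and were used throughout. None of them is on chromosome 13, where YP-mESC replicate 2 had 0 CpGs in its file. The promoters of 4 of 9 embryonic stem cell marker genes could be read and none exceeded 3.07% methylation in any library. The Pou5f1 promoter, whose gene encodes the pluripotency factor OCT4, had 0.317% and 2.17% in YP-mESCs and 0% and 0.123% in the clone, and Nanog had no value. The S33Y transgene could not be checked from these files, since the clone libraries had 0 coding CpGs of Ctnnb1 with 10 reads. Marker promoters of differentiated lineages could be read for 6 of 8 genes, 4 of them under 10% in every library.

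Mean methylation over the common CpGs was slightly higher in the clone. It was 26.54% and 26.545% in YP-mESC replicates 1 and 2, and 26.977% and 26.947% in OP-S33Y #1, a difference of 0.42 points of the percentage with no overlap. Weighted by reads, the libraries overlapped, at 23.9% and 27.0% in YP-mESCs against 27.7% and 23.4% in OP-S33Y #1, so this small difference depends on giving each CpG the same weight. Of all common CpGs, 89.65% differed by at most 10 points, 3171 were higher by over 25 points and 2785 lower by over 25 points. By a binomial likelihood ratio test with shared overdispersion, 960 CpGs (0.157% of those tested) were called higher and 883 (0.144%) lower, at an adjusted p under 0.05 and over 25 points. With 20 reads per CpG the excess turned, with 694 called higher and 777 lower. The counts also rest on the number of libraries: 292 were called higher and 279 lower without YP-mESC replicate 1, 439 and 401 without YP-mESC replicate 2, 549 and 495 without OP-S33Y #1 replicate 1, and 270 and 248 without OP-S33Y #1 replicate 2. With the overdispersion of each CpG moderated in place of shared, 0 CpGs were called in either direction, with 1358 higher and 1259 lower at an unadjusted p under 0.05.

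Gains and losses were also read over 1 kb windows with at least 5 common CpGs, tested by a quasi-binomial F test with limma's moderation of the spread and called at an adjusted p under 0.05 and over 10 points. Of 30208 windows, 573 (1.9%) rose in OP-S33Y #1 and 550 (1.82%) fell. The median difference was 17.47 points among the windows that rose and -15.98 points among those that fell. In every called window the clone libraries lay outside the range of the YP-mESC libraries. This follows largely from the rule for a call, and the share over all windows was not counted. The 2 directions were thus close in number, but they lay in different sequence. The balance between them is not firm, since with 20 reads per CpG 294 rose and 366 fell, with limma on log2 ratios 507 and 529, and with 500-base windows 398 and 400. With a minimum of 25 points 106 rose and 49 fell, and with at least 10 common CpGs 141 and 129. Windows that rose outnumbered those that fell in DNA between genes and in recurring sequence, while coding exons, introns and island shores held more windows that fell.

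Recurring sequence held the densest gains. The 20 bases centred on each common CpG were counted on both strands of the mm9 reference, and sequences that occur at least 10 times and hold at least 20 common CpGs were tested as units, each summed over its CpGs. These sequences were grouped after the values had been seen. Reads from near-identical copies can be placed at the wrong copy, so each level belongs to a sequence family rather than to a locus. Of 86 such sequences, 25 (29.1%) rose in OP-S33Y #1 and 0 (0.0%) fell, also with 0 that fell at an unadjusted p under 0.05. Several of the 25 share letters as pieces of a longer sequence, and 4 of them lie within a stretch of 74 bases on chromosome 3. The 25 are therefore not independent families, and their share is a description. The 6 sequences with the most common CpGs and the 1 with the largest difference are printed to show which families moved and which did not, each 5′ to 3′ with the tested CpG in capitals.
sequence 1: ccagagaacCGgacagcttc
sequence 2: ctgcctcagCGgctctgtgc
sequence 3: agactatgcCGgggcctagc
sequence 4: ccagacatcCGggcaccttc
sequence 5: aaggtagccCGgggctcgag
sequence 6: cgccgccgcCGccgccgccg
sequence with the largest difference: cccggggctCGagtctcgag

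The sequence with the largest difference occurs 3815 times in the reference and was read at 49 common CpGs. It had 44.1% and 44.7% in YP-mESC replicates 1 and 2 and 68.3% and 66.2% in OP-S33Y #1, a rise of 22.83 points, and 48 of its 49 CpGs were higher. Sequence 5, with 6753 copies and 117 common CpGs on 19 chromosomes, had 60.67% and 60.45% in YP-mESCs and 77.72% and 77.23% in the clone, a rise of 16.91 points. It shares its last letters with the start of the former sequence, so the 2 can overlap in the genome and are not independent. In other mESC lines, with no test, sequence 5 had 68.81% and 66.54% in the second S33Y clone and 54.73% and 44.81% in OP-mESCs. It had 79.41% and 79.47% with a control hairpin and 83.21% and 83.12% with a β-catenin hairpin. The former sequence had 53.61% and 52.88% in the second clone and 37.83% and 35.61% in OP-mESCs. It had 64.88% and 67.96% with the control hairpin and 71.13% and 71.04% with the β-catenin hairpin. These are levels of separately made lines, and the part of S33Y in them was not tested.

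Sequence 1, with 168 common CpGs, had 41.67% and 43.18% in YP-mESCs and 53.12% and 53.9% in the clone, and rose by 11.08 points. Sequence 2, with 147 common CpGs, had 43.81% and 45.53% in YP-mESCs and 56.52% and 57.56% in the clone, and rose by 12.37 points. Both groups were tight, with every clone library above every YP-mESC library. Sequence 3, the most frequent of those printed with 22003 copies, was already at 88.43% and 87.49% in YP-mESCs and had 90.44% and 89.29% in the clone, a difference of 1.904 points that lies under the 10 points needed for a call. Sequence 4 had a difference of 2.016 points from 86.94%, and sequence 6, a CGC triplet run, stayed under 1% in every one of the 4 libraries.

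The sequences that rose had intermediate levels in YP-mESCs. All 25 lay between 37.4% and 76.5% in YP-mESCs. Of the 31 sequences above 80% in YP-mESCs, 0 were called, and 7 were under 20%. A sequence that starts so high has little room for a rise of over 10 points. Some sequences of intermediate level were not called either. A sequence with 3461 copies had means of 49.84% in YP-mESCs and 49.31% in the clone. Another with 3547 copies had 35.36% and 32.28%. Over all 86 sequences the median difference was 3.25 points, 75 differences were above 0 and 11 below, and the range ran from -3.07 to 22.8 points. Without the 10 point minimum, 45 had an adjusted p under 0.05 in the upward direction and 0 in the downward direction.

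**Figure D1:**
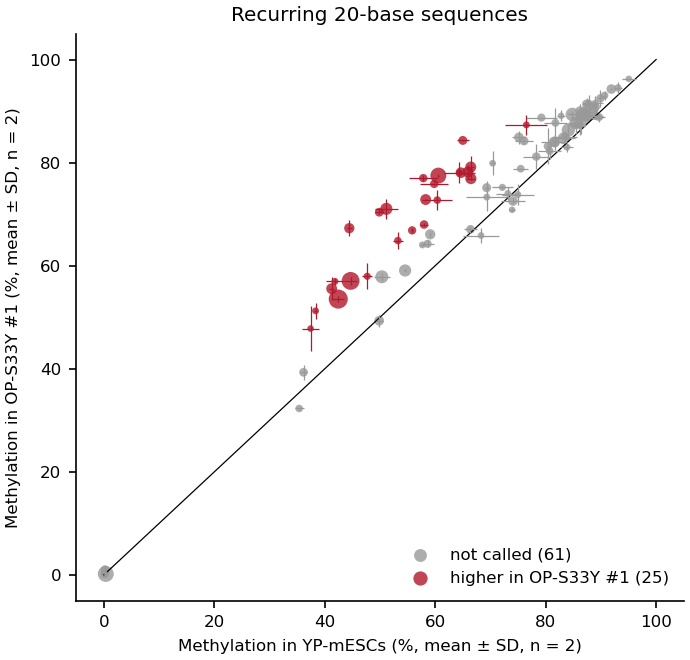
Methylation of the 86 recurring sequences in YP-mESCs (x axis, %) and in OP-S33Y #1 (y axis, %), as means with SD bars over 2 libraries per group, with point area growing with the number of common CpGs and the diagonal marking equal levels. The 25 sequences that rose (red) start between 37.4% and 76.5% in YP-mESCs, and sequences near 0% or over 80% lie on or close to the diagonal.

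The same contrast appeared over all common CpGs of recurring sequence. The 14190 CpGs whose 20 bases occur 10 or more times had a mean of 67.2% and 67.5% in YP-mESCs and 71.5% and 71.4% in OP-S33Y #1, a difference of 4.13 points, with 254 called higher and 21 lower. At 18672 CpGs with 2 to 9 copies the difference was 1.43 points, with 106 called higher and 38 lower. At the 578801 CpGs found at 1 place it was 0.296 points, and here the calls ran the other way, with 600 higher and 824 lower. Of 685 windows with a median of 10 or more copies, 123 (18.0%) rose and 3 (0.438%) fell. Of 28848 windows with 1 copy, 402 (1.39%) rose and 541 (1.88%) fell. When only CpGs found at 1 place entered the test, 358 windows rose and 500 fell, so the excess of windows that rose rests on recurring sequence.

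The window with the largest difference of all lies in such sequence on chromosome 3, 319943 bases from the nearest gene start, that of 1700008P02Rik, and was picked out after its value was seen. Its 6 common CpGs had 38.99% and 43.06% in YP-mESCs and 89.14% and 90.83% in OP-S33Y #1, a rise of 48.97 points with an adjusted p of 0.000625. Its sequence at chr3:6300280-6300353 of mm9, plus strand, with the common CpGs in capitals, holds 4 of the 25 recurring sequences that rose.
window on chromosome 3: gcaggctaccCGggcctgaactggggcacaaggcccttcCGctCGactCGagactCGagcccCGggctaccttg

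By gene location, the difference was largest between genes. The 111140 intergenic CpGs had a mean of 56.5% in each YP-mESC library and of 58.2% and 58.1% in OP-S33Y #1, a difference of 1.64 points, with 496 called higher and 209 lower. Intergenic CpGs found at 1 place also had a higher mean in the clone, by 1.19 points, with 217 called higher and 188 lower. The 55105 CpGs of coding exons differed by 0.117 points in the mean, yet 68 were called higher and 172 lower. In introns 217 were called higher and 364 lower, and in UTRs 16 and 34. Of 3928 coding exon windows, 69 (1.76%) rose and 167 (4.25%) fell, whereas of 5553 intergenic windows 266 (4.79%) rose and 103 (1.85%) fell. Promoters, taken as 1000 bases before to 500 after a gene start, held 303657 CpGs at 2.77% and 2.76% in YP-mESCs and 2.82% and 2.81% in the clone, with 158 called higher and 86 lower.

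By CpG context, islands and the 2 kb shores beside them differed in direction. Island CpGs (360446) had 2.39% and 2.40% in YP-mESCs and 2.47% and 2.45% in OP-S33Y #1, with 336 called higher and 44 lower. Of those calls, 123 higher and 1 lower fell on 3091 island CpGs with 10 or more copies, whose mean went from 33.2% in both YP-mESC libraries to 38.9% in both clone libraries. The 349148 island CpGs found at 1 place had overlapping means, 2.01% and 2.02% in YP-mESCs and 2.03% and 2.00% in the clone, with 160 called higher and 43 lower. Shore CpGs (44263) were lower in the clone, at 23.5% in each library against 24.2% and 24.1% in YP-mESCs, with 96 called higher and 146 lower. Shore windows followed, with 37 of 2328 that rose (1.59%) and 97 that fell (4.17%). Outside islands and shores the mean was 69.1% in each YP-mESC library and 70.4% in each clone library, with 528 CpGs called higher and 693 lower.

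The level of the same window in mESCs with a control hairpin (shCtrl), an E14 line of the series that entered neither group, ordered the 2 directions. Of 7038 windows at 80% or more in shCtrl, 260 (3.69%) rose in OP-S33Y #1 and 20 (0.284%) fell. Of 18111 windows under 20% in shCtrl, 17 (0.0939%) rose and 208 (1.15%) fell. Between 20% and 80% the directions were close, with 288 that rose and 320 that fell of 4804 windows.

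**Figure D2:**
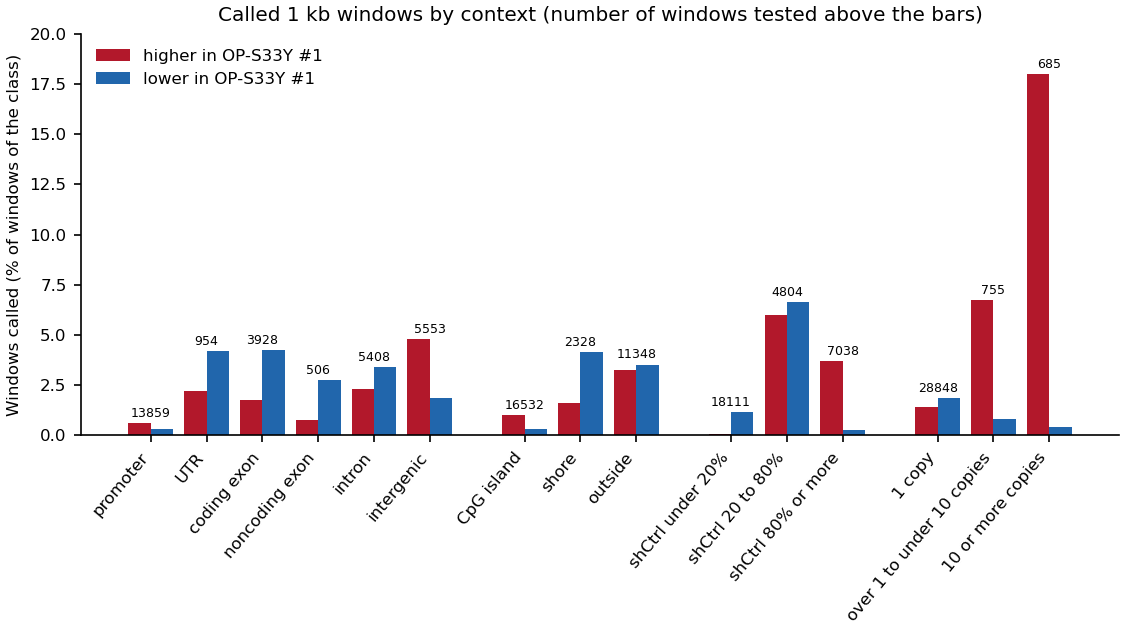
Share of 1 kb windows called higher (red) or lower (blue) in OP-S33Y #1 (y axis, % of the windows of each class), by gene location, CpG island context, level in shCtrl mESCs and the median number of copies of the 20 bases at each CpG, with the number of windows tested above each pair of bars. Windows with 10 or more copies stand apart, at 18.0% higher against 0.438% lower.

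Regions were defined as runs of at least 10 CpGs changed by over 25 points in the same direction and less than 2 kb apart. Since this rule uses the difference itself, region levels are a description with no test. There were 13 higher regions and 2 lower ones. Just outside the rule lay 3 higher and 1 lower runs of 8 changed CpGs and 2 higher and 2 lower runs of 9. To read the rule in libraries it did not use, regions were chosen on the pair of replicates numbered 1 and read in the pair numbered 2. All 11 higher regions chosen this way were also higher in the other pair, with a median of 30.73 points where chosen and 26.83 points where read, and all 3 lower ones were lower. The reverse choice gave 11 higher and 5 lower regions, again each with the same direction in the other pair, although 1 of the lower ones differed by only -1.055 points there. The replicates correlated at 0.9849 in OP-S33Y #1 and 0.982 in YP-mESCs and may be technical. This reading therefore speaks to the repeatability of the libraries and is no independent replication in other cultures. With CpGs changed by over 30 points there were 5 higher and 1 lower regions, with runs of 5 changed CpGs 68 and 33, with 20 reads per CpG 5 and 2, and with both clone libraries over 25 points beyond both YP-mESC libraries 2 and 0.

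**Figure D3:**
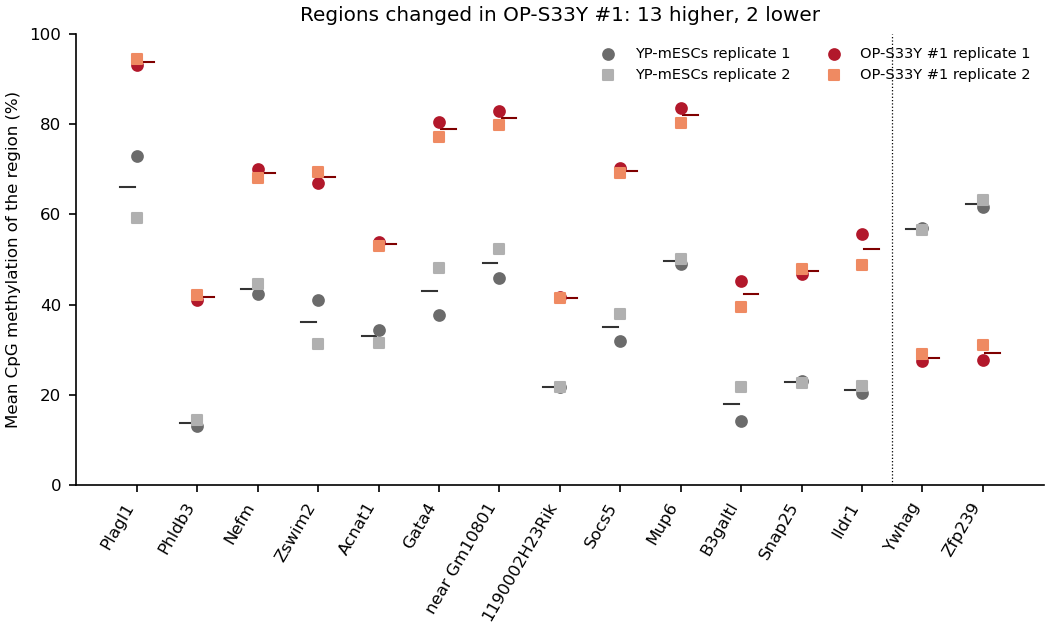
Mean methylation (y axis, %) of the common CpGs of each of the 15 regions in each library, with short lines at the group means, for 13 regions higher in OP-S33Y #1 and, right of the dotted line, 2 lower ones. In every region both clone libraries lie on the same side of both YP-mESC libraries, from 41.1% and 42.3% against 13.2% and 14.5% at Phldb3 to 27.7% and 31.1% against 61.6% and 63.1% at Zfp239.

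Of the 10 higher regions with the most changed CpGs, 4 lay at gene starts. Plagl1 encodes an imprinted zinc finger protein that restrains cell growth, and its region (chr10:12810670-12810934, in a UTR and intron and within its ICR) had 21 changed of 29 common CpGs. Its level was 72.9% and 59.2% in YP-mESC replicates 1 and 2 and 93.2% and 94.5% in OP-S33Y #1. The YP-mESC libraries differed from each other by more than the clone libraries did, and both lay below them.

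Phldb3 encodes a protein with a pleckstrin homology-like domain. Its region (chr7:25395489-25396616, in coding exon, UTR and intron) had 20 changed of 33 common CpGs, at 13.2% and 14.5% in YP-mESCs and 41.1% and 42.3% in the clone. Nefm encodes the medium neurofilament protein of axons, and its region (chr14:68742537-68743769, in coding exon, UTR and intron) had 20 changed of 39, at 42.4% and 44.5% in YP-mESCs and 70.0% and 68.2% in the clone. All 39 Nefm CpGs were higher in the clone mean, by 8.357 to 43.38 points. At 1190002H23Rik (chr14:79701000-79701597, in coding exon, UTR and intron), 13 of 33 CpGs had changed, from 21.77% and 21.79% to 41.7% and 41.4%.

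Other higher regions lay inside genes or away from them. Gata4 encodes a transcription factor of endoderm and heart, and its intronic region (chr14:63886507-63888274) had changed at all 14 common CpGs. Each was also called by the test of single CpGs, but that test uses the values by which the region was chosen. The calls are therefore no separate support. The region had 37.8% and 48.2% in YP-mESCs and 80.5% and 77.2% in OP-S33Y #1, a difference of 35.833 points, the largest of the 15 regions. The Gata4 promoter was not called, with 1.16% and 0.553% in YP-mESCs and 0.905% and 1.15% in the clone (adjusted p = 0.97 by the F test). Socs5 encodes a suppressor of cytokine signalling, and 13 of 14 common CpGs had changed in its intron, 17885 bases from the nearest annotated start. The Socs5 region had 31.96% and 38.02% in YP-mESCs and 70.2% and 69.1% in the clone, with CpGs higher by 24.05 to 46.03 points. Its sequence is printed because nearly every CpG moved by a like amount in a short stretch found at 1 place in the reference (chr17:87524851-87524981 of mm9, plus strand, common CpGs in capitals).
Socs5 intron: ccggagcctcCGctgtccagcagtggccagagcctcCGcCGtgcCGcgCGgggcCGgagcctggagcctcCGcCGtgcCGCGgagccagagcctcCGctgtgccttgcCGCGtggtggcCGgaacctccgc

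The remaining higher regions among the 10 with the most changed CpGs were partly in recurring sequence. At Zswim2 (chr2:83770590-83770994, intron) 14 of 18 CpGs had changed, with 41.0% and 31.3% in YP-mESCs and 66.96% and 69.4% in the clone, and only 7 of the 18 were found at 1 place. At Acnat1, which belongs to a family of acyltransferases (chr4:49479270-49480193, intron), 14 of 33 CpGs had changed, with 34.5% and 31.6% in YP-mESCs and 53.9% and 53.0% in the clone, and 8 of the 33 were found at 1 place. At Mup6, in the cluster of near-identical major urinary protein genes (chr4:59984186-59985056, intron), 12 of 14 CpGs had changed, with 49.1% and 50.1% in YP-mESCs and 83.6% and 80.3% in the clone, and 2 of the 14 were found at 1 place. An intergenic region 272568 bases from Gm10801 (chr2:98229684-98229968) had 13 changed of 18 CpGs, with 46.0% and 52.3% in YP-mESCs and 82.9% and 79.8% in the clone, and 9 of the 18 were found at 1 place. Which copy the reads of these 4 regions came from is therefore uncertain. Outside the 10 with the most changed CpGs, the higher regions at B3galtl, Snap25 and Ildr1 had 11, 10 and 10 changed CpGs and differences of 24.236, 24.458 and 31.091 points.

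The 2 lower regions were in coding sequence. Zfp239 encodes a zinc finger protein, and 13 of 16 common CpGs in its coding exon had changed (chr6:117821491-117821733). The level was 61.6% and 63.1% in YP-mESCs and 27.7% and 31.1% in OP-S33Y #1, and all 16 CpGs were lower, by -44.38 to -22.28 points. Ywhag encodes the gamma form of the 14-3-3 adaptor proteins, and 13 of 18 CpGs in its coding exon and UTR had changed (chr5:136385773-136387192), with 57.1% and 56.6% in YP-mESCs and 27.5% and 29.0% in the clone. The Zfp239 sequence is printed as the counterpart of the Socs5 intron, a run of coding exon CpGs that were lower together (chr6:117821481-117821743 of mm9, plus strand, common CpGs in capitals).
Zfp239 coding exon: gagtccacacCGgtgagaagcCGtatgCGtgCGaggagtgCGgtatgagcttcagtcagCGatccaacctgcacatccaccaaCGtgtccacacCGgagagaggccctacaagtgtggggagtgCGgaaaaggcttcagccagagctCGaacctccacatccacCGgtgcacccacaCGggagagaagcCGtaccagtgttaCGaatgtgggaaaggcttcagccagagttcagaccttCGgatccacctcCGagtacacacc

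**Figure D4:**
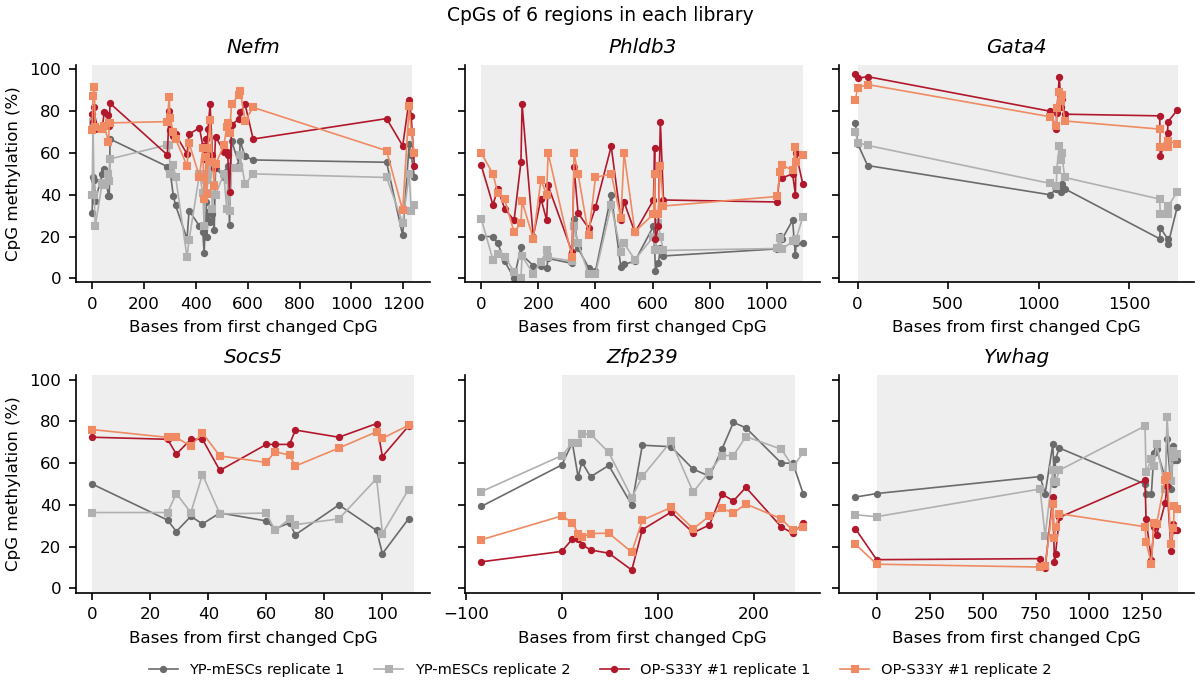
Methylation of each common CpG (y axis, %) in each library along 6 of the regions (x axis, bases from the first changed CpG, with the region shaded). At Gata4 and Socs5 all CpGs of both clone libraries lie above those of YP-mESCs at the same position, and at Zfp239 both clone libraries lie below.

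Promoters were tested like windows. Of 11224 with at least 5 common CpGs, 56 (0.499%) rose in OP-S33Y #1 and 16 (0.143%) fell, and 10260 differed by under 2 points. Only 519 had over 20% methylation in YP-mESCs. Without YP-mESC replicate 1, YP-mESC replicate 2, OP-S33Y #1 replicate 1 or OP-S33Y #1 replicate 2 in turn, 61 to 84 promoters rose and 23 to 26 fell. The number that rose was above the number that fell in each of these. With 20 reads per CpG 28 rose and 16 fell, with limma on log2 ratios 23 and 7, with at least 10 common CpGs 36 and 14, and with a minimum of 25 points 10 and 3.

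The largest promoter rises were at Trpc5, Ccdc39 and Scnn1b. Trpc5, a cation channel on the X chromosome, had 44.5% and 51.3% in YP-mESCs and 83.0% and 90.7% in the clone, the largest promoter rise at 38.985 points (adjusted p = 0.00448). Ccdc39, needed to assemble the dynein arms of motile cilia, had 30.5% and 32.9% in YP-mESCs and 64.2% and 71.2% in the clone (adjusted p = 0.00648). Scnn1b, the beta subunit of the epithelial sodium channel, had 30.6% and 26.8% in YP-mESCs and 55.4% and 63.6% in the clone (adjusted p = 0.0118). As in every called promoter, the groups did not overlap, which follows largely from the rule for a call. The share over all promoters was not counted, and promoters that were not called, such as Dnmt3a, could also lie apart. These promoters were read at only 5 to 8 CpGs.

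Asb4, an ankyrin repeat and SOCS box protein, had 26.5% and 24.4% in YP-mESCs and 55.2% and 53.1% in the clone (adjusted p = 0.0115). Myog, a transcription factor of muscle differentiation, had 67.4% and 59.9% in YP-mESCs and 86.6% and 93.6% in the clone (adjusted p = 0.0246). Tmem233 had 55.6% and 47.5% in YP-mESCs and 79.1% and 76.3% in the clone (adjusted p = 0.00493). The promoters of Nefm and Phldb3, which hold regions described above, rose by 25.337 and 27.802 points over 40 and 33 CpGs (adjusted p = 0.000136 for each), and those of Plagl1 and 4930563I02Rik rose by 27.115 and 25.577 points. The rise at 4930563I02Rik missed the threshold without YP-mESC replicate 1, at 21.89 points (adjusted p = 0.0577).

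The largest promoter fall was at Tex19.1. This gene, expressed in germ cells, placenta and pluripotent cells and known to restrain retrotransposons, had 73.1% and 77.1% in YP-mESCs and 31.9% and 28.4% in the clone, and fell by 44.959 points (adjusted p = 0.000307). Hormad2, a protein of meiotic chromosome axes, had 30.7% and 37.4% in YP-mESCs and 9.88% and 6.08% in the clone (adjusted p = 0.00648). Tmem149 had 58.0% and 62.8% in YP-mESCs and 30.5% and 36.8% in the clone (adjusted p = 0.00964). In all 3 the lower YP-mESC library was above the higher clone library by more than 20 points.

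Rpl39l, a ribosomal protein paralog of the testis, had 65.1% and 68.6% in YP-mESCs and 47.5% and 43.1% in the clone (adjusted p = 0.00813), and missed the threshold with limma on the log2 ratio (adjusted p = 0.104). Kifc1, a minus-end directed kinesin of the spindle, had 40.6% and 39.6% in YP-mESCs and 18.9% and 22.4% in the clone (adjusted p = 0.0123), but the difference was -0.197 points when the promoter was taken as 500 bases on each side of the start, and the adjusted p was 0.106 with limma on the log2 ratio. Atf4, a transcription factor of the integrated stress response, had 15.0% and 20.9% in YP-mESCs and 0.895% and 3.42% in the clone (adjusted p = 0.0118). Atf4, Gm1070 and Gpsm3 were read at only 6 CpGs each, and R3hdml at 5. Gm1070, R3hdml, Gpsm3 and Gm17546 differed by -22.430, -16.166, -15.292 and -14.609 points, each called, and the fall at R3hdml missed the threshold without OP-S33Y #1 replicate 2, at -12.81 points (adjusted p = 0.177). With limma on the log2 ratio R3hdml (adjusted p = 0.122) and Gm17546 (adjusted p = 0.115) missed it too.

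Most Wnt pathway promoters were close to unmethylated in both groups and 0 of the 81 tested were called, beside 0.499% higher and 0.143% lower over all promoters. Only 7 of the 81 were over 10% in any library. Of 37 secreted ligands and regulators 27 could be tested, with a median difference of 0.216 points, against -0.00926 points over all promoters tested. Wnt4 and Wnt7b, both ligands, were under 2% in every library. The ligand Wnt2 had 11.7% and 14.4% in YP-mESCs and 21.5% and 19.9% in OP-S33Y #1 (adjusted p = 0.0175), and the ligand Wnt3 1.55% and 1.10% in YP-mESCs and 3.85% and 4.28% in the clone (adjusted p = 0.0248). Both passed the p threshold but differed by 7.68 and 2.74 points, under the 10 points needed for a call. Dkk3, a secreted member of the Dickkopf family, had 10.6% and 8.89% in YP-mESCs and 24.4% and 15.8% in OP-S33Y #1 (adjusted p = 0.241). Of 22 receptors and their regulators 18 were tested, with a median difference of 0.0636 points. Znrf3, a ubiquitin ligase that removes Frizzled receptors, had 0.240% and 0.385% in YP-mESCs and 0.579% and 0.517% in the clone.

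Of 17 genes of the destruction complex and signal transduction, 15 were tested, with a median difference of -0.00358 points. The promoter of Ctnnb1 itself, the gene of β-catenin, had 0.435% and 0.492% in YP-mESCs and 0.558% and 0.165% in the clone over 65 CpGs (adjusted p = 0.881). Apc, the scaffold of the complex, was under 1% throughout, and its relative Apc2 had 13.9% and 10.7% in YP-mESCs and 17.7% and 17.8% in the clone (adjusted p = 0.363). Of 23 nuclear factors and targets 21 were tested, with a median difference of 0.0334 points. Axin2, a direct Wnt target and feedback inhibitor, had 0.0854% and 0.181% in YP-mESCs and 0.282% and 0.403% in the clone over 100 CpGs (adjusted p = 0.401). Tle2, a co-repressor, was the most methylated of the Wnt promoters read, with 32.1% and 33.7% in YP-mESCs and 36.3% and 32.2% in the clone (adjusted p = 1).

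Windows reach beyond the promoters, and 8 windows at Wnt genes, overlapping them or with their start nearest, were called higher and 5 lower. They were found after the values had been seen, with no count of all windows at these genes beside them. A window 915 bases from the start of Wnt2 had 38.2% and 39.0% in YP-mESCs and 70.2% and 68.5% in the clone. It rose by 30.75 points over 6 CpGs (adjusted p = 0.00446 by the F test). This window partly overlaps the Wnt2 promoter tested above, which was not called. A window 7834 bases from the start of Ctnnb1 had 59.6% and 59.5% in YP-mESCs and 41.5% and 44.8% in the clone (adjusted p = 0.0352).

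In the other gene groups, counts of called promoters stand beside the same 0.499% higher and 0.143% lower over all promoters. Of 34 genes of the methylation machinery and imprint protection 20 were tested and none was called. Of these 20, 0 were over 10% in any library, so a difference of over 10 points was not possible. Dnmt3a, a de novo methyltransferase, was under 0.5% in each library. Uhrf2, a relative of the maintenance factor UHRF1, passed the p threshold without the 10 points, with 7.52% and 7.54% in YP-mESCs and 4.21% and 4.46% in the clone (adjusted p = 0.0367). Of 30 pluripotency genes 18 were tested and none was called, but only 1 of the 18 was over 10% in any library. Prdm14, a regulator of naive pluripotency, had 20.7% and 13.4% in YP-mESCs and 5.09% and 8.53% in the clone (adjusted p = 0.134). Of 39 Hox genes, which pattern the body axis, 27 were tested, and of 58 clustered protocadherins, which encode neuronal adhesion proteins, 3 were tested. None in either group was called, but only 3 of the 27 Hox and 1 of the 3 protocadherin promoters were over 10% in any library.

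Of 48 germline genes 24 were tested, with none called (Tex19.1 and Hormad2, described above, are not in this list), a median level of 36.93% in YP-mESCs and 31.5% in the clone, and a median difference of -1.45 points. Tdrd1, a tudor domain protein of the piRNA pathway, had 33.05% and 34.5% in YP-mESCs and 20.3% and 23.7% in the clone (adjusted p = 0.0606). Asz1, another germ cell protein of the piRNA pathway, had 72.6% and 67.9% in YP-mESCs and 86.0% and 82.3% in the clone (adjusted p = 0.101). Dazl, an RNA-binding protein of germ cells, had 50.8% and 51.2% in YP-mESCs and 41.7% and 46.7% in the clone (adjusted p = 0.679). Of the 24 germline promoters 18 had a lower mean in the clone and 6 a higher one. The share over all promoters was not counted, and their median difference was -0.00926 points. Of the pluripotency promoters 14 were lower and 4 higher, and of the methylation machinery 15 and 4. Among the Wnt promoters 32 were lower and 48 higher. A lean to lower means was thus not particular to the germline list. Of 66 genes listed as lineage factors 53 were tested and 2 rose, Nefm and Nkx2-5, against 0.499% of all promoters. Nefm encodes a structural protein, and the list was chosen with earlier results of these data known, so this count is a description. Nkx2-5, a transcription factor of the early heart, had 16.9% and 18.3% in YP-mESCs and 26.3% and 34.6% in OP-S33Y #1 (adjusted p = 0.0388). Nkx2-5 missed the threshold without OP-S33Y #1 replicate 2, at 8.662 points (adjusted p = 0.159), and with limma on the log2 ratio (adjusted p = 0.213).

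Of the 20 ICRs that the study lists, 15 had at least 2 common CpGs. Of these, 3 (20%) were higher in OP-S33Y #1 and 0 (0.0%) lower, by the F test with an overdispersion shared by ICRs, with 0 lower also at an unadjusted p under 0.05. Plagl1 had 73.2% and 60.3% in YP-mESCs and 93.4% and 94.3% in the clone (adjusted p = 7.3e-08). Grb10, an adaptor that restrains growth signalling, had 31.1% and 33.7% in YP-mESCs and 53.9% and 42.4% in the clone (adjusted p = 0.00099). H13, a signal peptide peptidase gene, had 28.1% and 22.8% in YP-mESCs and 40.5% and 50.4% in the clone (adjusted p = 0.015). The Plagl1 difference stayed past the threshold without each library in turn. H13 missed it without YP-mESC replicate 1 (adjusted p = 0.0594), YP-mESC replicate 2 (adjusted p = 0.353) or OP-S33Y #1 replicate 2 (adjusted p = 0.0589), and Grb10 without YP-mESC replicate 1 (adjusted p = 0.0594), which left 1 to 3 ICRs called. The other 12 had differences from -6.6230 points at Herc3 to 15.354 points at Igf2r, where 5 CpGs gave 38.3% and 54.5% in YP-mESCs and 56.9% and 66.6% in the clone (adjusted p = 0.44).

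By chromosome, leaving out Y with its 3 windows, windows that rose were most frequent on chromosome 3 (50 of 1327, against 15 that fell) and chromosome 6 (41 of 1413, against 20). Windows that fell were most frequent on chromosome 17 (54 of 1527, against 28 that rose) and chromosome 11 (79 of 2633, against 29 that rose). On chromosome 1, 43 of 1780 rose and 14 fell. The share of reads also differed on 4 chromosomes. Chromosome 1 took 6.09% and 6.11% of the reads in YP-mESCs and 7.46% and 7.36% in OP-S33Y #1, a ratio of 1.21, and the ratio was 1.12 on chromosome 14, 0.83 on chromosome 8 and 0.897 on chromosome 11. On the other autosomes and X it was 0.979 to 1.02, and on Y, with 65 CpGs, 0.942. The part of these read shares in the methylation differences was not tested. Without chromosomes 1, 8, 11 and 14, 413 windows rose and 393 fell, and 44 promoters rose and 11 fell.

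**Figure D5:**
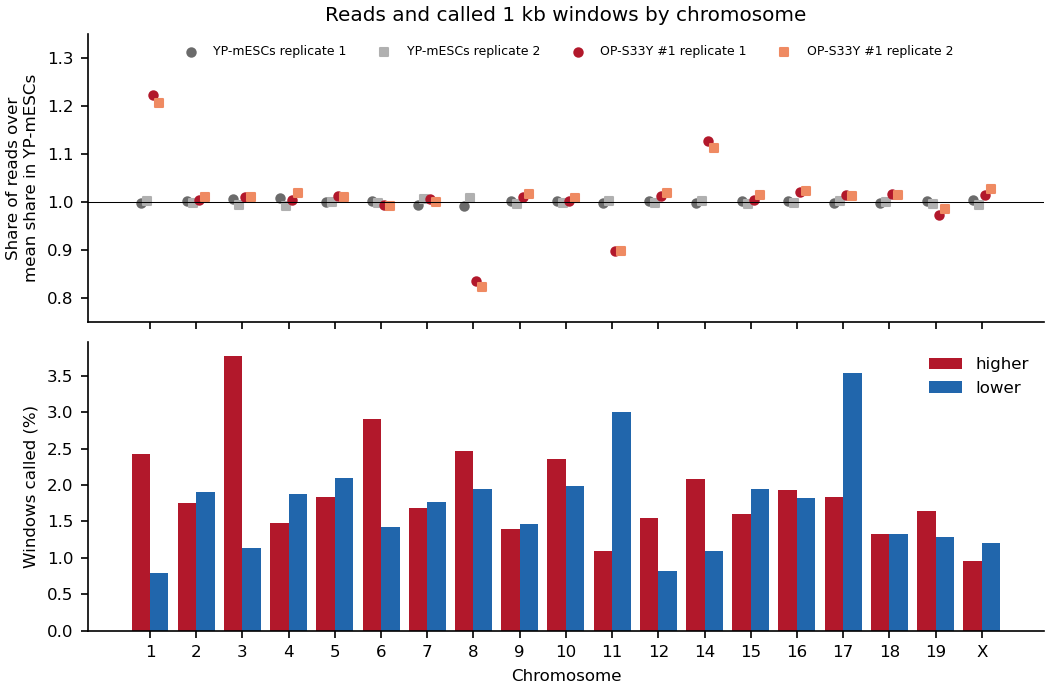
Upper panel: share of reads on each chromosome in each library, divided by the mean share in YP-mESCs (y axis, ratio; chromosomes 13 and Y left out). Lower panel: share of 1 kb windows called higher (red) or lower (blue) in OP-S33Y #1 (y axis, %). Relative to YP-mESCs, the read share of both clone libraries is high on chromosomes 1 and 14 and low on 8 and 11. The ratio does not say which group departs from an even share. Windows that rose lead on chromosome 3 and windows that fell on chromosome 17.

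The called windows were set beside the other mESC lines of the series, read as levels with no test. Over the 403 windows that rose and had a value in all mESC libraries, the median was 50.5% and 52.0% in YP-mESCs, 72.7% and 71.2% in OP-S33Y #1, 62.1% and 60.7% in the second S33Y clone, 50.5% and 47.6% in OP-mESCs, 76.4% and 77.3% in shCtrl mESCs and 82.2% and 81.9% in mESCs with a β-catenin hairpin. OP-S33Y #1 lay above the second clone and below both hairpin lines, and OP-mESCs lay near YP-mESCs. Over 401 windows that fell, the median was 39.8% and 38.2% in YP-mESCs, 20.98% and 20.97% in OP-S33Y #1, 19.08% and 18.1% in the second clone, 12.4% and 12.3% in OP-mESCs, 26.9% in each shCtrl library and 29.1% and 29.7% with the β-catenin hairpin. Over all 23023 windows with a value in these libraries, the upper quartile was 50.7% and 50.5% in YP-mESCs, 51.2% and 51.3% in OP-S33Y #1, 45.6% and 44.7% in the second clone, 35.8% and 35.9% in OP-mESCs, 58.5% and 59.1% in shCtrl mESCs and 63.5% and 63.3% with the β-catenin hairpin, so these lines also differed over all windows. Over the windows that fell, all of these lines lay below YP-mESCs. The windows were chosen by their levels in YP-mESCs and OP-S33Y #1, so the order of the other lines against these 2 is a description.

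Single genes took different orders. At Nefm OP-S33Y #1 stood above every other mESC line, with 43.3% and 47.0% in the second clone, 4.82% and 9.30% in OP-mESCs, 24.0% and 24.95% in shCtrl mESCs and 9.40% and 8.84% in mESCs with a β-catenin hairpin. At Plagl1 OP-mESCs stood apart at 2.85% and 6.65%, while the second clone had 90.9% and 92.5% and shCtrl mESCs 95.4% and 96.7%. At Zfp239 the second clone (24.2% and 20.6%) and OP-mESCs (23.9% and 19.4%) were lower than the clone, and shCtrl mESCs, with 83.5% and 83.0%, were above YP-mESCs. The Tex19.1 promoter had 29.9% and 21.5% in the second clone, 31.6% and 30.2% in OP-mESCs, which overlapped the clone, and 82.8% and 74.3% in shCtrl mESCs, which overlapped YP-mESCs. At Ildr1 both S33Y clones were high, with 54.6% and 42.3% in the second clone, against 12.004% and 6.03% in OP-mESCs and 23.1% and 15.4% in shCtrl mESCs.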

How the data were processed

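DNA of the OP-S33Y #1 and YP-mESC libraries was sequenced by RRBS (NuGEN Ovation kits). The tools named in the submitters' notes are CASAVA 1.8.2, Trim Galore 0.2.8 and Bismark 0.7.9, with mm9. Per the file headers, the authors deposited for each CpG cytosine the read count and the percent of methylated reads, neither normalized nor pooled. The handling of duplicate reads was not given in the sources used here, and intervals of reads cover counting error only. At 10 reads a CpG moves in steps of 10 points. Methylated reads came out whole, within 0.001, for all 12442768 entries, and every position was a CG of the mm9 reference.

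Strands were summed, and CpGs with 10 reads in all 4 libraries kept. Levels of regions, windows, promoters and ICRs are means of CpG percentages. Single CpGs were tested by a binomial likelihood ratio with an overdispersion shared by all CpGs (1.14), windows, promoters and recurring sequences by a quasi-binomial F test moderated with limma 3.58.1 (R 4.3.3), and ICRs with a shared overdispersion of 7.56, all with Benjamini-Hochberg adjustment over the whole table. Reads of neighbouring CpGs are summed in these tests and are not independent. An exact permutation test of 2 against 2 libraries cannot go below 0.33. Gene locations are from GENCODE vM1, and 23518 CpG islands were computed from the sequence (200 bases, 50% GC, observed over expected 0.6). The reference carries no repeat masking, so copies of 20-base sequences stand in for the planned repeat classes. Work was in Python 3.11.15 with numpy 2.4.6, scipy 1.17.1 and pandas 2.3.3, and the tests were tried on simulated reads.

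Members and gene lists were chosen with earlier results of these data known. The genes named are, per direction, the 10 regions with the most changed CpGs, the 10 promoters with the largest called difference, any ICR, called list members, up to 4 list members with the most CpGs, Ctnnb1, Pou5f1 and Nanog. Genes outside this rule (B3galtl, Snap25, Ildr1, 1700008P02Rik, Dkk3, Wnt2, Wnt3, Apc2, Tle2, Uhrf2, Prdm14, Tdrd1, Asz1) were chosen after their values were seen. Deviations of same-numbered libraries from their group means had a correlation of -0.013 over CpGs, so the numbers do not pair the libraries. The alternatives were other read minimums, thresholds, window and promoter sizes, tests, a replicate block, each library left out, sequence found at 1 place only, and 4 chromosomes left out. The last 2 were chosen after seeing the data.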

Additional observations from a re-analysis of the deposited data

How the results depend on the processing

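The differences that were followed kept their sign under the alternatives in which they were read. Most of these were picked for a large difference, so a change of sign was unlikely from the start. The differences by context were read again only with a library left out. The balance of calls did change. More were lower than higher with 20 reads per CpG (694 CpGs higher and 777 lower, and windows below), over CpGs found at 1 place (557 and 780 CpGs, 358 and 500 windows), with limma on the log2 ratio (507 and 529 windows) and with 500-base windows (398 and 400). Of the region, promoter and ICR values, 94, 208 and 12 kept their direction and side of the threshold (or moved by less than the replicate spread), while 10, 38 and 5 moved or were no longer past it; the causes were not tested except where fewer CpGs or libraries entered. The mean difference of 0.42 points was 0.2798 with 20 reads per CpG, 0.08727 when weighted by reads and 0.2963 over CpGs found at 1 place, and 0.4048 to 0.4349 with a library left out.

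With 20 reads per CpG, which left 20606 windows, 5 regions were higher, 294 windows rose and 366 fell, and 28 promoters rose. With a library left out, 270 to 549 CpGs were higher and 248 to 495 lower, 2 to 4 regions were lower, 61 to 84 promoters rose and 23 to 26 fell, 1 to 3 ICRs were higher and 0 lower, and 21 to 26 recurring sequences rose. A moderated overdispersion per CpG called 0 CpGs in either direction. With CpGs over 30 points, 549 CpGs were lower, and 5 regions were higher and 1 lower. With 5 changed CpGs, 68 regions were higher and 33 lower, and with both clone libraries 25 points beyond both YP-mESC libraries 2 and 0. With a minimum of 25 points, 106 windows rose and 49 fell, and 10 promoters rose and 3 fell. With 10 common CpGs, 141 windows rose and 129 fell, and 36 promoters rose. By limma on the log2 ratio of methylated to unmethylated reads, 23 promoters rose and 7 fell.

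The replicate numbers do not pair the libraries (correlation of deviations -0.013). With the replicate block, 0 windows and 0 promoters were called in either direction by the limma-moderated F test, with 891 windows higher and 823 lower and 101 promoters higher and 29 lower at an unadjusted p under 0.05, while 729 CpGs were higher and 669 lower and 2 ICRs were higher. The block leaves 1 residual degree of freedom. Regions chosen on a pair of replicates have no alternative with a library left out.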

Other observations

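Chromosome 13, which has no CpG in the file of YP-mESC replicate 2, could be read against YP-mESC replicate 1 only. Over 25397 CpGs with 10 reads the mean was 28.09% in that library and 28.82% and 28.84% in OP-S33Y #1 replicates 1 and 2. In the clone mean 231 CpGs were higher by over 25 points and 145 lower, and 123 and 78 of these were so in both clone libraries. The 2 clone libraries differed from each other by over 25 points at 276 CpGs, and 0 runs met the rule for a region. These are values with no test.

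The mitochondrial genome, whose CpGs are a common check of bisulfite conversion, had 0.26% and 0.242% methylated reads in YP-mESCs and 0.276% and 0.251% in OP-S33Y #1 over 12 CpGs, with overlapping groups.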
